A study of Mus musculus with 32 samples.

Results

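IGF2BP3 binding in the CD11b+ cells of MLL-Af4 leukemia was measured by eCLIP in 4 libraries, each set against its own size-matched input, which makes 8 of the 32 samples of the series. All peaks that the peak caller CLIPper found in these 8 libraries were taken, before the deposited filter on input. They came to 45265 peaks, of which 38501 were eCLIP peaks. Each peak was given to the host gene named with it. The host genes were joined to the CD11b+ RNA-seq table of 25887 genes, of which 7421 carried a peak in at least 1 of the 8 libraries and 18466 carried none. The question was which transcripts gain peaks over input when compared with transcripts of the same abundance.

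The cells came from mice transplanted with WT hematopoietic stem and progenitor cells carrying a retroviral MLL-Af4 fusion, and were taken from splenic tumors by positive selection for CD11b with magnetic beads. Donor marrow was enriched with fluorouracil and selected with G418 after transduction, and the recipients were irradiated; the labels give no treatment of the cells themselves. All 8 libraries share genotype and fusion, so they compare antibody pulldown with input only. Of the eCLIP libraries, replicates 1 and 2 were labelled as biological and replicates 3 and 4 as technical, with no label that ties a technical to a biological one. The inputs carry no such label, only the same replicate numbers. The abundance of a transcript was its baseMean, the mean normalized RNA-seq count over CD11b+ libraries of 3 WT/MLL-Af4 samples and 3 samples of I3KO/MLL-Af4, where I3KO is a germline deletion of Igf2bp3. The library names begin with "bm" although the labels name the spleen, so the tissue is not settled. By baseMean, 9 of 10 monocyte and macrophage markers and 7 of 10 neutrophil markers reached 1000. None of 5 B cell and none of 5 T cell markers did, with highest values of 433 and 13.5. Of 5 erythroid markers 2 reached 1000, the highest at 1268, and of 4 stroma and endothelium markers 1 did, Pecam1 (3852), and the part of such cells in the results was not tested. Itgam, which encodes CD11b itself, had a baseMean of only 17.0.

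IGF2BP3 is an oncofetal RNA-binding protein with RRM and KH domains. It binds transcripts, often in the 3′UTR, and is known for changing their stability and translation, and its KH domains favor CA-rich elements. In eCLIP, RNA crosslinked to the protein is pulled down with an antibody and sequenced, and the size-matched input is the RNA of the same gel range without the pulldown, so that a peak present in both may reflect abundant or structured RNA.

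The peaks differed in sequence between pulldown and input, and the regions behind this are shown first. Overlapping peaks of the 8 libraries were merged on the same strand into 19536 regions. Of these, 1724 regions on 1249 genes held a peak of all 4 eCLIP libraries and of no input, 376 regions on 363 genes held a peak of all 4 inputs and of no eCLIP library, and 219 held a peak of all 8. The 1724 regions were intronic in 75.3% and in a 3′UTR in 11.5%. A GT repeat (GTGTGT or TGTGTG) lay in the 100 nt around the middle of 632 of them (36.7%), with a median longest run of 29 nt, and a CA repeat (ACACAC or CACACA) in 277 (16.1%), with a median longest run of 28 nt. Of the 376 regions found only in inputs, 38 (10.1%) had a GT repeat and 6.38% a CA repeat. The following 30-nt stretches (GRCm38, 5′ to 3′ on the strand of the transcript, the repeat in capitals) come from regions with many reads in all 4 eCLIP libraries and no input peak, and show what such sites look like in an intron of Zeb2, Foxp1 and Mbnl1 and in the 3′UTR of Arf3.
Zeb2, chr2:45109148-45109177, minus strand: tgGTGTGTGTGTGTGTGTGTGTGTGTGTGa
Foxp1, chr6:99514497-99514526, minus strand: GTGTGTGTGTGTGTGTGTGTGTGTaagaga
Mbnl1, chr3:60528532-60528561, plus strand: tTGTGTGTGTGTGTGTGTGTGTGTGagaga
Arf3, chr15:98738504-98738533, minus strand: GTGTGTGTGTGTGTGTGTGTGTGTGTGTGT

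Sites with a CA repeat are shown for an intron of Rnf169 and of Atp8b4 and for the 3′UTR of Gpx3 and Ceacam1. The Gpx3 site holds a single short CA repeat, the other 3 hold long ones.
Rnf169, chr7:99951931-99951960, minus strand: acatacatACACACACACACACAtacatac
Atp8b4, chr2:126366352-126366381, minus strand: ACACACACACACACACACACACACACACAC
Gpx3, chr11:54910040-54910069, plus strand: gcccacactACACACcaccagcctccttct
Ceacam1, chr7:25463644-25463673, minus strand: CACACACACACACACACACACACACACACA

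Not every strong site held either repeat. An intron of Dock2, chr11:34544834-34544863 on the minus strand, is shown because Dock2 was among the genes with the most eCLIP peaks. It has no letters in capitals, since neither repeat was found in its merged region of 73 nt. The 100 nt around its middle were not part of this choice.
Dock2 site: agattttcttaccgctgtttacctaaatat
The largest CLIPper read number of a peak at the Zeb2 site was 116, 149, 144 and 126 in eCLIP replicates 1 to 4. At the Dock2 site it was 106, 257, 92 and 139, and at the Atp8b4 site 53, 326, 46 and 207. At the CA repeat of Atp8b4 and at the Dock2 intron, replicates 2 and 4 were above replicates 1 and 3, while the 4 values of the GT repeat of Zeb2 were within a narrower range. The kind of repeat did not separate such sites. Replicates 2 and 4 were also higher at the CA repeat of Rnf169 (48, 125, 40 and 79) and a GT repeat of Slc25a12 (97, 255, 92 and 209). They were not at the CA repeats of Gpx3 (146, 117, 107 and 58) and Ceacam1 (40, 55, 48 and 40).

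The yield of peaks was higher in eCLIP than in input in every replicate. The eCLIP libraries had 9555, 11771, 8609 and 8566 peaks in replicates 1 to 4, on 4526, 5213, 4254 and 4070 host genes. The inputs had 1665, 1885, 1381 and 1833 peaks on 1300, 1555, 1129 and 1489 host genes. The groups did not overlap, with a difference of 7934 peaks (exact permutation test over the 8 libraries, two-sided, p = 0.0286, the smallest p that 4 against 4 allows). Peaks had a median width of 46 to 51 nt in eCLIP and of 13 to 17 nt in input. The file headers name other deduplication and peak calling settings for inputs than for eCLIP, which cannot be told apart from the pulldown in any comparison of the 2 kinds. Read depths were not given, so the larger yield was not corrected for depth.

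The 4 eCLIP libraries did not stand equally far from each other. Of the peaks of replicate 3, 64.0% lay in a region also found in replicate 1 and 49.1% in one of replicate 4. Of the peaks of replicate 4, 71.9% lay in a region of replicate 2 and 54.3% in one of replicate 1. Replicates 1 and 3 thus resembled each other, as did replicates 2 and 4, and p-values over 4 libraries measure in part a technical spread. Counting only the 2 biological eCLIP libraries and the inputs of the same numbers, no exact test can go below 0.333.

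Gain over input depended on transcript abundance. Of the genes with a baseMean of 1000 to 10000, 49.4%, 51.3%, 46.7% and 41.1% had a peak in eCLIP replicates 1 to 4, against 6.13%, 7.20%, 5.16% and 7.89% in the inputs. Every eCLIP library was above every input, by 40.5 percentage points in the mean (exact permutation test, adjusted p = 0.0476 over the 5 abundance bins). From 100 to 1000 the eCLIP shares were 15.2% to 20.3% and the input shares 3.53% to 5.23% (adjusted p = 0.0476, exact permutation). At a baseMean of 10000 and over, 57.3% to 64.9% of the genes had an eCLIP peak and 12.9% to 15.8% an input peak (adjusted p = 0.0476, exact permutation). Among the least abundant transcripts, under 10, the eCLIP shares of 2.56% to 4.86% overlapped the input shares of 2.36% to 3.51%, and the difference of 0.462 percentage points had an adjusted p of 0.514 in the exact permutation test. From 10 to 100 the ranges of 3.87% to 6.22% and 2.59% to 4.35% overlapped as well (exact permutation, adjusted p = 0.143).

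These differences are also set by the larger yield. When each eCLIP library was cut to as many peaks as its own input had, keeping those with the lowest CLIPper p, the share of genes with a peak stayed higher in eCLIP from 1000 to 10000, by 2.44 percentage points, and at 10000 and over, by 15.2. It was lower than in input in the 3 bins below 1000, by −2.49, −2.74 and −2.94 percentage points (exact permutation, adjusted p = 0.0286 in each of the 5 bins). Under both ways of counting, the 2 upper bins had more genes with a peak in eCLIP than in input.

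Per gene, 1530 of the 7421 genes tested (20.6%) had more peaks in every eCLIP library than in every input, and are called gained here. The opposite held for 152 (2.05%), called lost. A single gene cannot be called beyond this: the exact permutation test gave an unadjusted p under 0.05 for 1682 genes and an adjusted p under 0.05 for 0, with a smallest adjusted p of 0.126. In units of peaks per 10000 peaks of a library, 1315 genes (17.7%) were gained and 434 (5.85%) lost, and all of the 1315 were among the 1530. With as many eCLIP as input peaks, 181 of 2461 genes (7.35%) were gained, all among the 1530, and 348 (14.1%) were lost. When peaks of a gene within 100 nt of each other were counted once, as 1 cluster, 1453 (19.6%) were gained and 151 (2.03%) lost. Of the 7421 genes tested, 6734 had an eCLIP peak and 1873 an input peak. Most thus entered through eCLIP peaks alone and could not be lost, so the gained and lost shares cannot be set against each other.

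The share gained was higher in each bin of higher abundance. It was 67 of 963 genes tested with a baseMean under 10 (6.96%), 51 of 617 from 10 to 100 (8.27%), 303 of 2705 from 100 to 1000 (11.2%), 992 of 2935 from 1000 to 10000 (33.8%) and 117 of 201 at 10000 and over (58.2%). Of all 25887 genes, with or without a peak, the shares gained in these bins were 0.691%, 1.11%, 4.26%, 23.6% and 41.9%. The lost genes ran the other way, with 63, 34, 49, 6 and 0 in the same bins. The mean gain per gene, that is mean eCLIP less mean input peaks, was 0.0744 in the lowest decile of baseMean and 3.09 in the highest. Gained genes had a median baseMean of 1950, against 766 over all genes tested in all bins together. At matched baseMean their median gene length was 40.9 kb against 96.0 kb over the genes tested under 10, 25.8 kb against 61.5 kb from 10 to 100, 36.5 kb against 33.5 kb from 100 to 1000, 42.1 kb against 32.9 kb from 1000 to 10000 and 15.4 kb against 9.10 kb at 10000 and over. Gained genes were thus shorter than the genes tested in the 2 lower bins and longer in the 3 upper ones. They included 1456 protein-coding genes. Most gains were small: 855 of the 1530 had 1 peak in their lowest eCLIP library and 153 had at least 5, and 1287 had no input peak at all. Gained genes held 20993 of the 38501 eCLIP peaks, or 54.5%, of which 74.1% were intronic and 7.78% in a 3′UTR. These shares are near those of all eCLIP peaks, 71.0% and 7.58% in the mean over libraries. Of the gained genes, 986 had an eCLIP peak with a GT repeat and 735 one with a CA repeat. Such counts rise with the number of peaks per gene and were not compared with other genes.

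**Figure D1:**
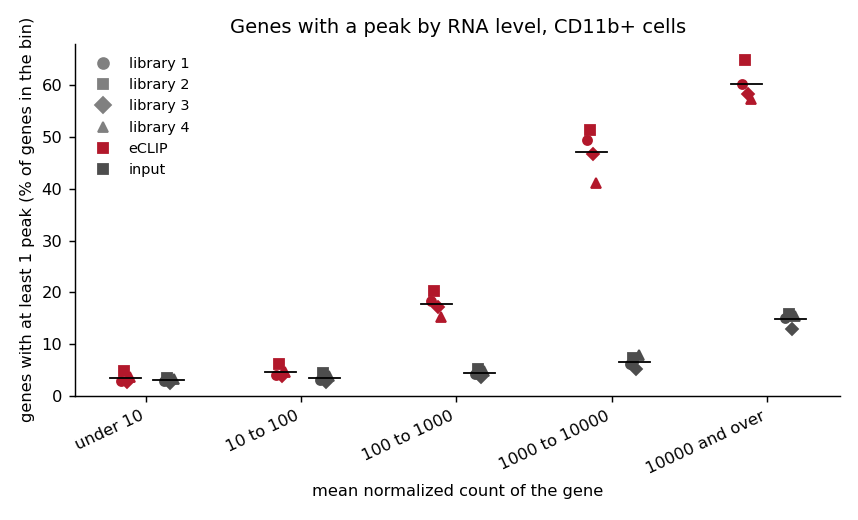
Percent of the genes of each baseMean bin with at least 1 peak, per library, for CD11b+ eCLIP and size-matched input (symbols, libraries 1 to 4 of each; horizontal bars, means). The 2 kinds of library overlap under 100 and are apart from 100 upward, reaching 57.3% to 64.9% in eCLIP and 12.9% to 15.8% in input at 10000 and over.

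Zeb2, a zinc finger transcription factor of hematopoietic and myeloid cells, had the most peaks over input. It had 100, 64, 66 and 49 eCLIP peaks in replicates 1 to 4 and 1, 2, 1 and 3 in the inputs. Set against the mean gain of the genes in its own baseMean decile (its baseMean was 5851), Zeb2 had an excess of 64.9 peaks, the largest of all genes tested. The gene lies at chr2:44983632-45117395 on the minus strand, and 274 of its 279 eCLIP peaks were intronic and 119 had a GT repeat. Zeb2 had 25, 23, 21 and 18 clusters in eCLIP against 1, 2, 1 and 3 in input. Its peaks were thus spread along the transcript rather than piled on 1 place.

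Other genes with many peaks differed in this respect. Ncf4, a cytosolic subunit of the phagocyte NADPH oxidase (chr15:78244801-78262580), had 18, 39, 20 and 21 eCLIP peaks and none in any input. All 98 were intronic and within 0.781 kb, and made 4, 3, 4 and 2 clusters. Its baseMean was 8356. Trrap, a scaffold of histone acetyltransferase complexes, had 19, 14, 17 and 13 peaks against 0, 1, 0 and 1, all 63 with a GT repeat within 0.159 kb of intron, which is 1 cluster in each library. In Ncf4 and Trrap every eCLIP library was above every input in peaks, but Trrap no longer was in clusters.

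Dock2, a Rac-activating exchange factor of hematopoietic cells (chr11:34226815-34783892), had 24, 79, 18 and 62 eCLIP peaks against 1, 1, 1 and 0. Replicates 2 and 4 were above replicates 1 and 3, and the clusters followed, with 4, 11, 5 and 12 against 1, 1, 1 and 0. Xist, the noncoding RNA of X inactivation (chrX:103460366-103483254), had 13, 79, 12 and 38 eCLIP peaks and none in input. Of its 142 eCLIP peaks, 111 had a GT repeat, and they made 4, 2, 4 and 2 clusters. Baz2b, a bromodomain protein of chromatin remodeling (chr2:59899363-60209839), had 20, 37, 12 and 22 peaks and none in input, all 91 intronic, in 16, 17, 10 and 16 clusters. Baz2b and Zeb2 had the largest gap in clusters of all genes tested.

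For several hosts with many peaks, all peaks lay within a small RNA in an intron. The 89 eCLIP peaks of Ncapd2, which encodes a condensin subunit, lay in Scarna10, a small Cajal body RNA that guides modification of spliceosomal RNAs. The numbers were 22, 22, 22 and 23 in eCLIP against 3, 3, 5 and 4. Per 10000 peaks, the excess of Ncapd2 turned from 16.6 to −0.860. All 75 peaks of Kpna4, an importin, lay in the small Cajal body RNA Gm22009 (17, 21, 23 and 14 against 1 in each input). All 104 of the autophagy gene Atg16l1 lay in 2 such RNAs (21, 33, 15 and 35 against 5, 4, 3 and 4). When peaks with their middle in an annotated small RNA were left out, Ncapd2, Kpna4 and Atg16l1 were no longer gained, while 1420 of the 1530 gained genes were. For 113 of the 1530, over 50% of the eCLIP peaks lay in such RNAs. Cmss1, which with 20, 18, 22 and 20 against 4, 4, 3 and 6 completes the 10 genes with the largest gap, had all 80 peaks within 0.181 kb of intron, and its excess turned from 15.3 to −3.16 per 10000 peaks.

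By clusters instead of peaks, the 10 genes with the largest gap were Zeb2, Baz2b, Arid1a, Arrb1, Plec, Lcp1, Fnbp1, Lrrc8d, Hnrnph1 and Myh9. Arid1a, a subunit of the BAF chromatin remodeling complex, had 17, 15, 13 and 10 clusters against 0, 0, 0 and 1. Lcp1, the leukocyte actin-bundling protein L-plastin, had 10, 10, 9 and 8, and Arrb1, β-arrestin 1, 12, 11, 9 and 10, with none in input for either. Myh9, nonmuscle myosin heavy chain, had 8, 17, 6 and 13 clusters and none in input. Lcp1, Arrb1 and Myh9 had baseMeans of 29735, 5866 and 42698, all within the highest decile of baseMean, which runs from 4006 to 145234.

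**Figure D2:**
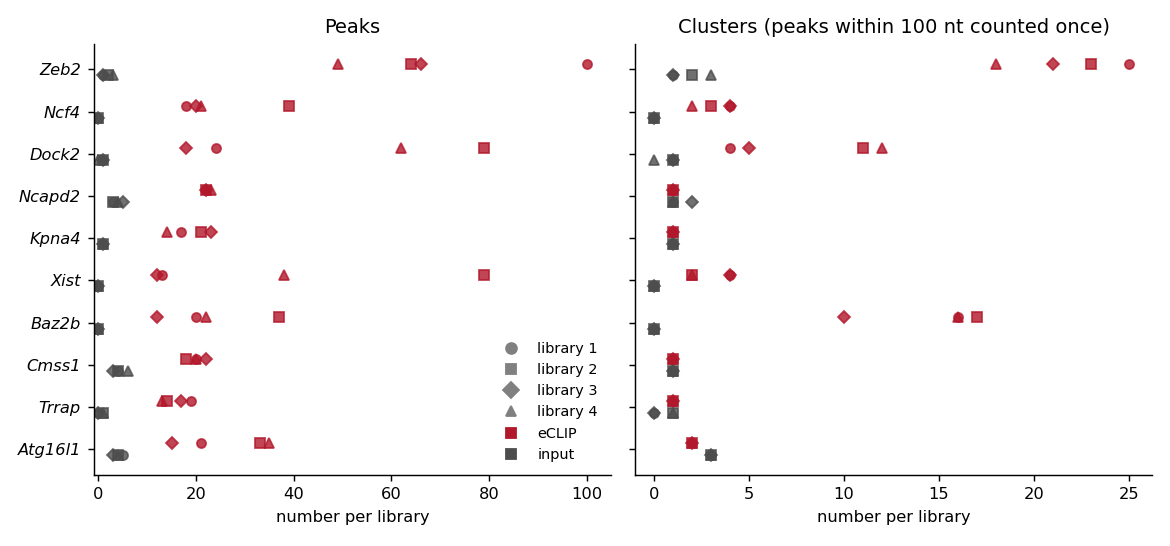
Number of peaks per library (left) and of clusters, counting peaks within 100 nt once (right; symbols, libraries 1 to 4 of eCLIP and input), for the 10 genes with the largest gap between lowest eCLIP and highest input peak number. Zeb2, Baz2b and Dock2 keep 4 to 25 clusters in eCLIP, whereas the peaks of Ncapd2, Kpna4, Cmss1 and Trrap fall in 1 cluster per eCLIP library.

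At low baseMean the genes of largest gap were of other kinds. Under a baseMean of 10 they were Rn7sk, the 7SK RNA that holds P-TEFb inactive (7, 4, 10 and 5 against 1 in each input), Rnu12, the U12 RNA of the minor spliceosome (4, 5, 4 and 5 against 1 in each), and Pabpn1, a nuclear poly(A)-binding protein (4, 4, 4 and 3 against 0). The RNA-seq was of polyadenylated RNA, so baseMean does not measure the abundance of RNAs such as Rn7sk and Rnu12. From 10 to 100 they were Tex14 (23, 21, 25 and 20 against 10, 13, 6 and 5), with all 89 eCLIP peaks in small RNAs such as Rnu3b, Gm42418 (29, 29, 29 and 23 against 11, 15, 9 and 17) and Itgam, the integrin subunit CD11b used to select the cells. Itgam had 6, 8, 4 and 5 eCLIP peaks and none in input, 14 of 23 in introns and 9 in the 3′UTR. Whether the baseMeans of Itgam (17.0) and Pabpn1 (2.60) reflect the abundance of their RNAs was not tested. From 100 to 1000 they were Atg16l1, Cmss1 and Cdk8, the kinase of the Mediator complex, with 21, 19, 15 and 14 against 3, 3, 4 and 4 within 0.332 kb of intron. Per 10000 peaks the excess of Cdk8 was −3.46, that of Tex14 −24.9 and that of Gm42418 −45.5. At 10000 and over, Eif4g2, a translation initiation factor, had 14, 13, 10 and 11 against 1, 2, 1 and 0, but 41 of its 48 eCLIP peaks lay in an intronic snoRNA.

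Relative to genes of the same abundance, the largest excess after Zeb2 was found for Dock2 (41.9 peaks), Cdk6 (35.7), Xist (32.4) and Ncf4 (21.4). Like Zeb2, they lie in the highest decile of baseMean, from 4006 to 145234, so abundance was matched only within this wide range. Without replicate 2 the excess was 31.1 for Dock2, 18.1 for Xist and 16.8 for Ncf4. Cdk6, the G1 cell cycle kinase and a target of MLL fusions, had 10, 83, 10 and 75 eCLIP peaks against 7, 5, 5 and 6. Replicates 2 and 4 carried this excess, 167 of 178 peaks had a CA repeat, and only 4, 3, 4 and 3 clusters against 1, 3, 2 and 2 were left. Per 10000 peaks the excess of Cdk6 was 8.62, and it was not gained. Matching on baseMean and gene length together left the excess of Zeb2 at 63.5 and of Dock2 at 40.5.

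Igf2bp3 itself, whose protein was pulled down, had 1, 3, 2 and 2 peaks and none in input, all 8 intronic. It was gained, with a baseMean of 1355 that includes the 3 knockout libraries. The retroviral fusion joins MLL (Kmt2a) and Af4 (Aff1) sequence. Kmt2a, a histone methyltransferase, had 6, 27, 7 and 18 eCLIP peaks against 1 in each input, with 57 of 58 in coding exons, and it was not gained per 10000 peaks or in clusters (1, 3, 4 and 2 against 1 in each). Reads of the fusion transcript and of the endogenous Kmt2a were not told apart here. Aff1 had 3, 6, 0 and 3 peaks against none and was not gained.

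Of the chromatin regulators, 17 of 27 with a peak, of 30 in the table, were gained and none lost, and per 10000 peaks 15 were gained. Their median gain was 2 peaks, against 0.5 over all genes tested, which had a lower median baseMean (766 against 2674). Set against genes of the same baseMean decile, their median excess was 0.656 peaks, against −0.247 over all genes tested. In clusters 15 were gained. For genes of the abundance of these 27 the mean share gained, taken from the baseMean decile each belongs to, was 38.9%, and the group's share was 63.0%. Besides Baz2b and Kmt2a they included Arid1a (21, 23, 15 and 11 against 0, 0, 0 and 1), the Arid1b subunit of the same complex (5, 12, 6 and 11 against 0), and Kmt2d, another histone methyltransferase (15, 7, 9 and 5 against 0). Tet2 and Tet3, which oxidize methylcytosine, had 3, 9, 5 and 6 and 5, 11, 7 and 7, with no input peak. Smarca5 and Kmt2b had 1 eCLIP peak each, in a single library.

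Splicing factors of the SR and hnRNP families had 15 of 25 members gained and none lost, where genes of their abundance were gained in 45.6%. Their median gain was 2 peaks. Set against genes of the same baseMean decile, their median excess was −0.407 peaks, against −0.247 over all genes tested. The higher share gained thus did not go with a larger median excess. Per 10000 peaks 15 were gained and 2 lost. Hnrnph1 had 11, 7, 7 and 8 and Srsf6 8, 10, 6 and 6, without input peaks, and 32 of 33 and 30 of 30 were intronic. Srsf10 had 3, 0, 0 and 1 against 1, 2, 2 and 1, and Hnrnpc 1, 1, 0 and 0 against 1, 0, 0 and 0.

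Of the MLL-fusion target genes, 9 of 18 were gained, with a median gain of 2.75 peaks and a share of 30.9% for genes of their abundance. Per 10000 peaks 3 were. Beside Zeb2, Cdk6 and Kmt2a, the homeobox gene Hoxa9 had 7, 3, 7 and 2 and none in input, Runx1, a hematopoietic transcription factor, 9, 20, 5 and 12 against 2, 1, 1 and 1, and the progenitor factor Myb 7, 8, 5 and 7 against 1, 0, 0 and 1. Mef2c (1, 2, 0 and 2 against 1, 1, 0 and 0) and the Hoxa9 cofactor Meis1 (1, 2, 0 and 2 against 0, 0, 0 and 1) overlapped their inputs. Of the IGF2BP family and its known clients, 7 of 11 were gained, where 34.8% was the share for their abundance. Per 10000 peaks 4 were gained, and in clusters 5. Actb, a classical zipcode transcript, had 9, 8, 7 and 7 against 0, 1, 0 and 0, with 25 of 31 peaks intronic and 5 in the 3′UTR. Myc had 1, 2, 1 and 1 and Hmga1 1, 3, 2 and 1, with none in input, and the cyclin gene Ccnd3 had 6, 22, 7 and 19 against 1, 0, 2 and 2. Cd44, the hyaluronan receptor, with 4, 4, 1 and 6 against 1, 1, 0 and 1, was not gained.

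Of the Ras, MAPK and PI3K genes, 10 of 24 were gained, against 33.8% for their abundance. Pik3cd, the PI3K catalytic subunit of leukocytes, had 8, 12, 14 and 9 against 1, 1, 0 and 1. Rasgrp2, a Rap exchange factor, had 14, 8, 15 and 4 and Sos2, a Ras exchange factor, 8, 5, 6 and 6, with no input peak. Nras and Mapk3 were not gained, with at most 2 peaks in any eCLIP library. Of the DOCK exchange factors 3 of 11 were gained (27.3%, against 25.8% for their abundance), Dock2 and Dock10 (3, 4, 2 and 3 against 0) among them, and Dock4, with 0 in eCLIP against 1 in each input, was lost.

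Genes of the myeloid lineage were split. Of the myeloid receptors and transcription factors 8 of 17 were gained, against 37.4% for their abundance. The macrophage genes Mpeg1 (11, 2, 7 and 1), Ccr2 (13, 3, 4 and 1) and Csf1r (7, 1, 5 and 1) had no input peak, and in all 3 replicates 1 and 3 were above replicates 2 and 4. Csf2rb, a cytokine receptor chain (3, 4, 3 and 4), Fcgr3 (4, 3, 3 and 3) and Lyz2 (5, 3, 2 and 2) had none in input either. Others were not gained. Cebpa, the granulocytic master factor, had 1, 0, 0 and 0, and of monocyte and macrophage genes Ly6c2 had 2, 0, 1 and 0 and Cd68 0, 1, 0 and 0. Adgre1, Cd14 and Tlr4 had no peak in any of the 8 libraries, at baseMeans of 2474, 1742 and 615. Of the neutrophil granule genes only Prtn3, a serine protease, was gained (4, 3, 2 and 1 against 0), 1 of 6 with a peak, where 53.0% was the share for their abundance. Elane and Ngp had 1 peak in all of eCLIP and Mpo none, with a baseMean of 84102. High abundance did not always go with an eCLIP peak, since 78 genes with a baseMean of at least 10000 had none. Of these, mt-Co1 had the highest baseMean, 193256, and none of the 31 mitochondrially encoded genes had a peak in any of the 8 libraries. Also among the 78, Gm28661 had the baseMean of mt-Co2 (53098), and Gm28437 nearly that of mt-Co3 (59714). Whether peaks could be called on such sequence in these libraries was not tested.

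Groups rich in structured RNA depended on the scale. Ribosomal protein genes had 18 of 62 members gained and none lost, where 49.7% was the share for their abundance. Per 10000 peaks 4 were gained and 10 lost. All 55 eCLIP peaks of Rpl13a (15, 14, 10 and 16 against 4, 3, 3 and 4) and all 32 of Rpl10 (6, 7, 8 and 11 against 2, 1, 1 and 1) lay in the snoRNAs these genes host, and the excess of Rpl13a turned from 9.67 to −6.31 per 10000 peaks. Of the long noncoding RNAs, 5 of 11 were gained and none lost, at 19.6% for their abundance, and per 10000 peaks 1 was gained and 5 lost. Gas5 had 14, 13, 16 and 17 against 7, 7, 7 and 6, all 60 in its snoRNAs. Snhg12 had 11, 26, 13 and 24 against 6, 4, 4 and 5. Malat1, a nuclear speckle RNA, had 0, 0, 0 and 53 against 1, 6, 1 and 10, so its eCLIP peaks came from replicate 4 alone, and Neat1, the paraspeckle RNA, had none against 0, 3, 2 and 2. Of the small structured RNAs with their own entry, 17 of 49 were gained and 1 lost, at 6.99% for their abundance, and per 10000 peaks 9 and 10. Translation factors had 8 of 18 gained, at 47.2% for their abundance, and per 10000 peaks 4 gained and 2 lost. Pabpc1, the cytoplasmic poly(A)-binding protein, had 8, 8, 8 and 12 against 0, 0, 0 and 1, with 20 of 36 peaks in its 3′UTR and 16 in its 5′UTR. Of 9 replication-dependent histone genes 1 had a peak, Hist1h4m in replicate 4, and none was gained.

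Lost genes were of low abundance, with a median baseMean of 19.9. Their median length was 88.7 kb against 96.0 kb over the genes tested in the bin under 10, which held 63 of them. It was 145 kb against 61.5 kb from 10 to 100 and 53.5 kb against 33.5 kb from 100 to 1000. From 1000 to 10000, with 6 lost genes, it was 85.5 kb against 32.9 kb. Lost genes were thus shorter than the genes tested under 10 and longer in the other bins that held any. Of the 152, 145 had no eCLIP peak at all and 143 had 1 peak in their lowest input. The largest gaps were found for Mamdc2 (1, 1, 0 and 0 against 3 in each input), and for the dynein gene Dnah11 and the Epac1 gene Rapgef3 (0 against 2 in each input). Wdr92 had 1, 1, 0 and 1 against 2, 2, 3 and 3, and Zfp536 1 in each eCLIP library against 2, 3, 2 and 2. The genes with the most input peaks were no such genes: Gm42418, Eif4a2 (18, 20, 19 and 18 against 14, 6, 9 and 9), Tex14, Rcc1 (9, 24, 9 and 25 against 11, 6, 6 and 9) and Gas5. Of these, Gm42418, Eif4a2, Tex14 and Gas5 were gained in peak number, but none of them per 10000 peaks, where Gm42418, Eif4a2, Rcc1 and Gas5 were lost. Their excess over genes of the same abundance was then −45.5 for Gm42418, −39.2 for Eif4a2, −25.4 for Gas5 and −24.9 for Tex14.

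The place of the peaks within transcripts also differed between pulldown and input. In 3′UTRs lay 11.1%, 4.77%, 10.1% and 4.30% of eCLIP peaks in replicates 1 to 4, against 1.74%, 2.23%, 1.59% and 2.40% of input peaks. The difference of 5.59 percentage points had an adjusted p of 0.0343 in the exact permutation test, and replicates 1 and 3 had over 2 times the share of replicates 2 and 4. Coding exons held 1.87% ± 0.427 of eCLIP and 6.48% ± 0.373 (SD, n = 4 each) of input peaks (difference −4.60, adjusted p = 0.0343, exact permutation). The 5′UTR shares overlapped (exact permutation p = 0.714). With as many eCLIP as input peaks, the 3′UTR difference was 4.59 and that of coding exons −5.40, with the same adjusted p in the exact permutation test.

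Intronic peaks made up 69.4%, 72.8%, 70.5% and 71.3% in eCLIP and 55.7%, 65.4%, 54.5% and 63.2% in input (difference 11.3, adjusted p = 0.0343, exact permutation). Exons of noncoding transcripts, most of them small RNAs, held 14.3% to 21.4% of eCLIP and 22.9% to 34.7% of input peaks (difference −12.2, adjusted p = 0.0343, exact permutation). Both directions turned when each eCLIP library was cut to as many peaks as its input: introns were then lower in eCLIP, by −14.0, and exons of noncoding transcripts higher, by 14.6 (adjusted p = 0.0343, exact permutation). The eCLIP peaks of lowest p thus lay in exons of noncoding transcripts more often than the rest.

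Of intronic peaks, 15.8%, 12.7%, 13.6% and 9.08% lay within 100 nt of a 3′ splice site in eCLIP, against 2.16% to 2.91% in input. The difference was 10.3 percentage points (exact permutation, adjusted p = 0.0286). At 5′ splice sites the shares were 13.5%, 10.2%, 11.0% and 7.66% against 3.41% to 4.09%, a difference of 6.70 (exact permutation, adjusted p = 0.0286). With as many peaks as input these differences were 3.88 and 3.08, with adjusted p of 0.0571 and 0.143 (exact permutation). By annotated type, protein-coding hosts had 87.9% ± 1.25 (SD, n = 4) of eCLIP and 76.5% ± 3.40 (SD, n = 4) of input peaks, and snoRNA genes 3.24% ± 0.584 and 9.06% ± 2.06. Both passed the exact permutation test with an adjusted p of 0.0468, and neither did with as many eCLIP as input peaks.

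A GT repeat was found in the 100 nt around 22.7%, 26.5%, 26.2% and 29.9% of eCLIP peaks and 7.51%, 7.43%, 8.33% and 7.42% of input peaks. All consecutive 100-nt windows along the genes of the RNA-seq table, with or without a peak, held one in 8.49%. Input was near this level and every eCLIP library above it. The difference of 18.6 percentage points had an exact permutation p of 0.0286, and an adjusted p of 0.0714 over the 5 motifs, of which only the GT repeat and GGAC reached the smallest p. Taking 1 peak per host gene, an alternative chosen after seeing the data, gave 24.1% to 33.7% against 7.72% to 8.41% (adjusted p = 0.0476, exact permutation), with a difference of 20.7. With as many eCLIP as input peaks it was 12.9. GT repeats were in 29.4% to 38.9% of 3′UTR peaks and 25.8% to 36.7% of intronic peaks of eCLIP, and in 1.33% to 2.93% of those in coding exons. Between 33.1% and 41.3% of the host genes of an eCLIP library had such a peak.

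CA repeats differed between libraries more than between kinds. They were found in 11.0%, 21.8%, 14.6% and 23.7% of eCLIP peaks and 9.75% ± 1.74 (SD, n = 4) of input peaks, with 6.49% in all windows. Replicates 2 and 4 were above replicates 1 and 3, input replicate 4 was above eCLIP replicate 1, and the difference of 8.02 had an exact permutation p of 0.0571 and an adjusted p of 0.0714. Only 352 of the 38501 eCLIP peaks held both repeats, against 10100 with a GT and 6901 with a CA repeat. GGAC, part of the DRACH sequence in which adenosine is methylated, was in 17.0% to 23.0% of eCLIP peaks, 26.1% to 27.5% of input peaks and 22.3% of windows (difference −7.07, exact permutation p = 0.0286, adjusted p = 0.0714). TGCAT (difference −1.62, exact permutation, adjusted p = 0.0714) and TTTTTT (0.169, adjusted p = 0.657) are the other letters searched on the strand of the peak. TGCAT and the GT repeat can share bases. A match is a description of these windows, not a binding site.

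**Figure D3:**
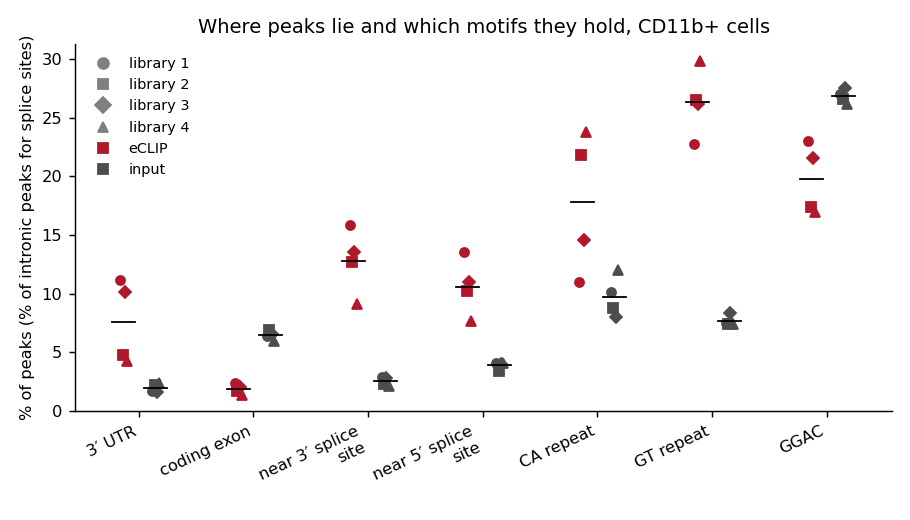
Percent of peaks per library in 3′UTRs and coding exons, of intronic peaks near splice sites, and of peaks with a CA repeat, a GT repeat or GGAC in their 100 nt, for CD11b+ eCLIP and input (symbols, libraries 1 to 4; bars, means). eCLIP is above input for 3′UTRs, both splice sites and the GT repeat (22.7% to 29.9% against 7.42% to 8.33%), and below it for coding exons and GGAC.

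The gain over input was compared with that of the 6 eCLIP libraries of Lin− cells, lineage-depleted bone marrow cells that carry the fusion and were kept in culture, each against its own input. For GT repeats the gain in CD11b+ cells was 15.2, 19.1, 17.8 and 22.4 percentage points, against 2.21 to 5.11 in the 6 Lin− libraries. The gains did not overlap and differed by 15.2 (exact permutation test of 4 against 6 libraries, p = 0.00476, the smallest it can give, adjusted p = 0.0206 over 13 measures). Of the Lin− eCLIP libraries, replicates 1 to 3 were labelled as biological and 4 to 6 as technical, so these p-values count technical repeats as well. With the 2 biological CD11b+ and the 3 biological Lin− libraries, the GT difference was 14.2 (exact permutation p = 0.1, the smallest this design allows). Near splice sites it was the reverse: the gain at 3′ splice sites was 10.3 ± 2.48 (SD, n = 4) in CD11b+ and 50.6 ± 16.4 (SD, n = 6) in Lin− cells, differing by −40.4 (adjusted p = 0.0248, exact permutation). At 5′ splice sites the gains were 6.70 ± 2.39 and 28.6 ± 4.27 (difference −21.9, adjusted p = 0.0206, exact permutation). For coding exons eCLIP less input was −4.60 ± 0.444 in CD11b+ and 4.73 ± 3.94 in Lin− cells (difference −9.34, adjusted p = 0.0206, exact permutation). The gain in 3′UTRs was 5.59 ± 3.92 against 0.373 ± 1.03 (difference 5.22, adjusted p = 0.0248, exact permutation). It was 9.38 and 8.54 in CD11b+ replicates 1 and 3, but 2.54 and 1.90 in replicates 2 and 4, and at most 2.15 in Lin− libraries. Without CD11b+ replicate 1, 2 or 3 the difference was 3.95, 6.23 or 4.23, with an adjusted p of 0.0619 (exact permutation). With fewer libraries the test also has fewer splits. For CA repeats (7.14, exact permutation, adjusted p = 0.193) and introns (0.297, exact permutation, adjusted p = 0.981) the test did not pass. The headers name the same settings for the 2 cell types, and 1 Lin− input had only 217 peaks.

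**Figure D4:**
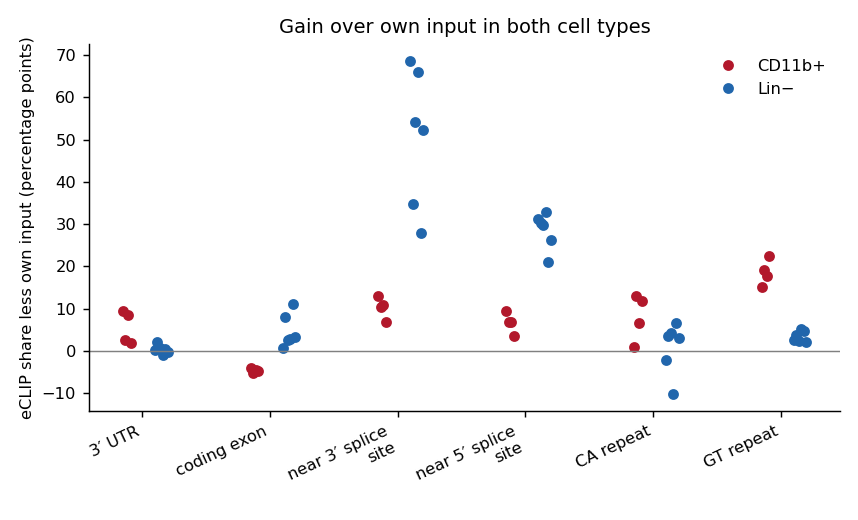
Gain of eCLIP over its own input in percentage points, per replicate, in CD11b+ (4 libraries) and Lin− cells (6 libraries), for 3′UTRs, coding exons, splice sites and both repeats (points, libraries; line, no difference). The GT repeat gains 15.2 to 22.4 points in CD11b+ cells and 2.21 to 5.11 in Lin− cells, and the gain near 3′ splice sites is higher in every Lin− library.

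Input peaks had letters of their own. The 376 regions found in all 4 inputs and no eCLIP library were narrow, with a median width of 16 nt against 78 nt for those of eCLIP alone, and 83.8% were intronic. In their central 40 nt, the most frequent words of 8 letters, chosen after seeing the data, were CGGAAGAG in 45 regions, GTATGTCT in 34 (9.04%) and CTTCCGAT in 28 (7.45%), with at least 1 of them in 107 (28.5%). Of 40-nt windows along the genes of the RNA-seq table, with or without a peak, 0.0326%, 0.0770% and 0.00843% held them. Of the 1724 regions of eCLIP alone 0 held any. An intronic site of Etv6 with a word in capitals shows this, beside a site of Runx2 with only a part of the first word.
Etv6, chr6:134093209-134093238, plus strand: tgtgtgtctatatctgccGTATGTCTctgt
Runx2, chr17:44785404-44785433, minus strand: gcaattcaatcaatagatcggaagtaggca

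Per library, 13.1%, 15.3%, 13.8% and 12.9% of CD11b+ input peaks held 1 of the 3 words, and 0.419%, 0.374%, 0.348% and 0.432% of eCLIP peaks. In the Lin− libraries, which were not used to choose the words, the inputs held them in 8.15% to 23.5% and eCLIP in 0.419% to 0.649%, a difference of 14.6 percentage points (exact permutation test of 6 against 6 libraries, 3 of the eCLIP ones technical repeats, p = 0.00216). The letters of the first word also stand at the start of a common Illumina sequencing adapter, and the part of adapter sequence in these peaks was not tested. Without peaks that held a word, 1551 genes were gained and 109 lost, against 1530 and 152 with them.

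**Figure D5:**
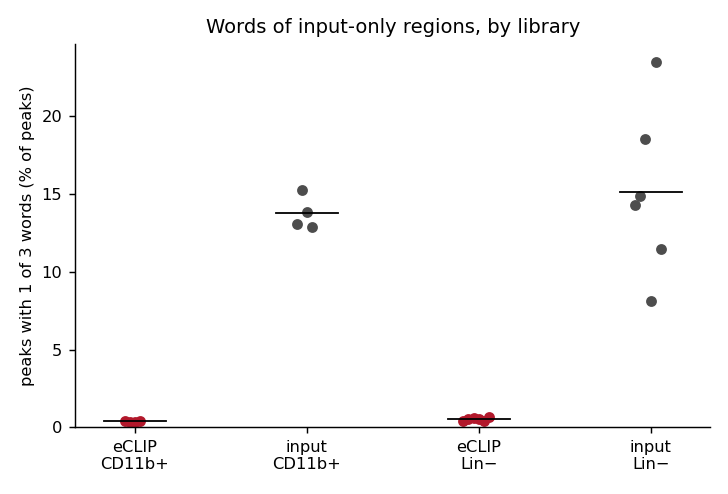
Percent of peaks of each library whose central 40 nt hold CGGAAGAG, GTATGTCT or CTTCCGAT, for eCLIP and input of CD11b+ (4 each) and Lin− cells (6 each; points, libraries; bars, means). All 10 inputs lie between 8.15% and 23.5% and all 10 eCLIP libraries under 1%.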

How the data were processed

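The 4 CD11b+ IGF2BP3 eCLIP libraries and their 4 size-matched inputs, and the 12 Lin− libraries as a comparison, were grouped by their labels. Per the file headers and methods, the authors filtered reads on repeats, mapped them to mm10, deduplicated them and called peaks per library with CLIPper. The deposited value of each peak, at most 0.05, was read as its p-value. Inputs and eCLIP were deduplicated and called with different settings. The authors' mean normalized count, a signal from DESeq2 over 6 RNA-seq libraries (mapped with STAR 2.5.3a per the submitters' processing notes), gave abundance. Their fold changes, p-values and peak flags in that table, and the Lin− table, were not used. Depth per library is not given in the sources used here, and the number of libraries limits precision.

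Peaks were placed in GENCODE M21 by their midpoint, with splice sites and motifs read from GRCm38, using Python 3.11.15, pandas 2.3.3, NumPy 2.4.6 and SciPy 1.17.1. Peaks on 1082 genes outside the table (7.76% to 9.64% of eCLIP and 17.7% to 23.5% of input peaks) stayed out of gene counts. Differences between libraries were tested with a two-sided exact permutation test over 70 splits, Benjamini-Hochberg adjusted within each family of measures with a threshold of 0.05. The calls per gene were tested on simulated data. Unchanged genes there had the same mean in eCLIP and input, so the larger yield of eCLIP was not simulated. An eCLIP library and the input with its number come from the same sample, so the fits with a replicate block were run as an alternative. Genes were named by the largest gap between lowest eCLIP and highest input peak number in the table, per bin and per list (per list also the lowest gap, and the member of highest baseMean without a peak), by most input peaks, by the opposite gap, and Igf2bp3, Itgam, Kmt2a and Aff1. The genes of largest excess and of most sites, and a few list members beyond this rule, were named after their values were seen. Members, lists and this rule were chosen with earlier results of these data known.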

Additional observations from a re-analysis of the deposited data

Results flagged for a closer look

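Of the groups of 4 libraries, 4 had a library apart from the other 3 by Dixon's criterion, which chance alone meets in about 1 in 20 groups. Many groups were looked at, and whether 4 is more than chance gives was not tested. For the share of intronic peaks near 5′ splice sites, input replicate 2 was lowest at 3.41%. For GT repeats, input replicate 3 was highest at 8.33%. For the long noncoding RNAs, eCLIP replicate 4 was highest, with 1.55% of its peaks, among them all 53 eCLIP peaks of Malat1. For the replication-dependent histones, eCLIP replicate 4 was highest at 0.0117%, which is 1 peak.

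The gain over input differed between CD11b+ and Lin− cells in 5 measures by the exact permutation test of the difference itself: GT repeats by 15.2 percentage points, 3′UTRs by 5.22, coding exons by −9.34, and the shares of intronic peaks near 3′ and 5′ splice sites by −40.4 and −21.9.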

How the results depend on the processing

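With as many eCLIP as input peaks, the shares of genes with a peak turned to −2.49, −2.74 and −2.94 in the 3 lower bins, introns to −14.0, exons of noncoding transcripts to 14.6, protein-coding hosts to −0.375, long noncoding RNAs to 0.704, small structured RNAs to 0.478, translation factors to 1.52, ribosomal proteins to 3.04, snRNA genes to 1.43 and TTTTTT to −0.544, and the splice site differences of 3.88 and 3.08 no longer passed. Per 10000 peaks the excess of Rassf4 turned to −9.91 and that of Ncapd2 to −0.860, beside Cmss1, Cdk8, Tex14, Gm42418 and Rpl13a. TGCAT turned to 1.10 and GGAC to 2.45 when only the peak itself was searched, and TTTTTT turned to −0.196 in 50 nt and to −0.124 in intronic peaks. Peaks had a median width of 46 to 51 nt in eCLIP and 13 to 17 nt in input. A search of the peak itself thus covers more sequence in eCLIP, for GT and CA repeats as well. With CLIPper p below 0.001, TTTTTT turned to −0.472 and the share of genes with a peak under a baseMean of 10 to −0.0361. GT repeats passed with CLIPper p below 0.001 (18.2), in the peak itself (20.8), in 3′UTR peaks (26.3), after the deposited filter on input (21.8) and with 1 peak per gene (20.7). CA repeats passed with p below 0.001 (9.09) and in the peak itself (10.3). Small structured RNAs no longer did with p below 0.001 (−6.36). Gained genes numbered 2512 with biological replicates only, 1007 with p below 0.001, 181 with equal peak numbers and 3227 with replicates 1 and 3 and replicates 2 and 4 averaged. Lost genes numbered 290 with biological replicates only, 348 with equal peak numbers, 385 with averaged replicates, 244 after the filter, 434 per 10000 peaks and 89 at a baseMean of at least 10. Leaving out replicates 1 to 4 in turn gave 1703 to 1984 gained and 192 to 207 lost genes, and moved the 3′UTR difference between cell types to between 3.95 and 6.45, and leaving out single libraries of either cell type moved that of introns, which was not called, to between −3.67 and 3.38. The causes were not tested.

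With the replicate block, 1583 genes had more peaks than the input of the same number in 4 of 4 pairs and 164 fewer, and the differences for GT repeats (18.6) and 3′UTRs (5.59) had the same size by construction, with 0.125 as the smallest p a sign-flip permutation over 4 pairs can give, so no test over libraries could pass with the block. Averaging replicates, 1 peak per gene, leaving out small RNAs or the 3 words, and counting peaks within 100 nt once were chosen after seeing the data.

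What limits these results is the design: 2 biological eCLIP libraries, inputs with no label of this kind, different deduplication and calling settings for inputs and eCLIP, and no read depth. Peak number per gene grows with yield, and peaks of 6 to 12 nt stand side by side at some sites. A result that fell with equal peak numbers was not shown to hold apart from yield.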
